A study of Mus musculus with 2 samples.

Results

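The 8 genes described here are Hmga1, Hmga2, Igf2bp1, Igf2bp2, Igf2bp3, Lin28b, Igf2 and H19, taken by symbol from the 32285 genes counted. They were followed in tumour cells, macrophages and T cells of tumours grown in C57BL/6 mice from MC38, a mouse colon carcinoma line. One library (RSPO3-OE) came from MC38 cells made to overexpress RSPO3, which belongs to the R-spondins, secreted proteins that amplify Wnt signals, and 1 (Ctrl) from control MC38 cells. The labels call both tissues xenografts although the line and the host are mouse. How many mice stand behind a library, where the tumours grew, their age at harvest, the age of the animals and the vector are not stated in the labels. With 1 library per group no test between groups was made, cells are not replicates, and each 95% interval below covers counting error only.

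These genes are grouped as oncofetal because embryonic tissues use them and many tumours express them, while how far adult tissues silence them differs between the genes. HMGA1 and HMGA2 are small chromatin proteins whose AT hooks bind the minor groove of AT-rich DNA. IGF2BP1, IGF2BP2 and IGF2BP3 bind messenger RNAs, among them that of the fetal growth factor IGF2, and affect their stability, localisation and translation. LIN28B blocks the maturation of let-7 microRNAs, and let-7 in turn represses Hmga2, Lin28b and the Igf2bp family. Igf2 and H19 are neighbouring imprinted genes on chromosome 7, the first a ligand of the receptor IGF1R and the second a non-coding RNA.

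The link between let-7 and the other genes can be read from their sequences, which are shown because let-7 itself, being short and without a poly(A) tail, is outside what this assay counts. The seed of a microRNA is its bases 2 to 8, here in capitals, from RefSeq (GRCm38.p6), 5′ to 3′. The 3 shown share the seed and differ after it, while mmu-let-7j in the same table has another seed.
mmu-let-7a-5p: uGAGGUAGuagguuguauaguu
mmu-let-7e-5p: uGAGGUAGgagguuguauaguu
mmu-let-7g-5p: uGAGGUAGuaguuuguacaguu

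The longest annotated 3′ UTR of each gene (GENCODE vM21, GRCm38) was searched on the sense strand for CTACCTC, the complement of that seed. Of 21037 genes with an annotated 3′ UTR, 9.02% held at least 1 match. Hmga2, Igf2bp1 and Lin28b held 4 each. Among 3′ UTRs of like length, from 0.8 of the length of the gene's own up to that length divided by 0.8, 0.123%, 0.331% and 0.295% held as many, respectively. Hmga1, Igf2bp2 and Igf2bp3 held 1 each, where 8.23%, 12.1% and 13.3% of 3′ UTRs of like length held at least 1. Igf2 held 0 in 3050 bases. A match is a description of the letters and not evidence of a working site. The first match of each gene, in capitals, is given with its neighbouring bases.
Hmga2, chr10:120364224-120364253, minus strand: agggggcgccgacattcaatttCTACCTCa
Lin28b, chr10:45381022-45381051, minus strand: tcccttcacccgggcgggaagtCTACCTCa
Igf2bp1, chr11:95961778-95961807, minus strand: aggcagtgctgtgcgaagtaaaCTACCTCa
Igf2bp2, chr16:22059473-22059502, minus strand: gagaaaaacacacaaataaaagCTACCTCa
Igf2bp3, chr6:49086787-49086816, minus strand: ttaaacgtgcatttttactcaaCTACCTCa
Hmga1, chr17:27563270-27563299, plus strand: catcttctcctctgttcacaaaCTACCTCt

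The filters kept 6993 cells of RSPO3-OE and 6895 of Ctrl, with medians of 18915 and 16627 unique molecular identifiers (UMIs, counted molecules). The files give 7 barcodes that occur in both libraries. Tumour cells had no UMI of Ptprc, the pan-leukocyte gene, under 10 of C1qa, C1qb and C1qc together, and at least 1 of Krt8 and Hmga2 together. This gave 4440 RSPO3-OE and 4393 Ctrl cells with medians of 24685 and 21369 UMIs. Macrophages had at least 20 UMIs of the 3 C1q genes, 1214 and 1176 cells with medians of 11920.5 and 12676.5 UMIs. T cells had at least 2 UMIs of Cd3d, Cd3e and Cd3g, 416 and 208 cells with medians of 6861 and 7096 UMIs. In tumour cells the 4 Y-linked genes (Uty, Kdm5d, Eif2s3y and Ddx3y) summed to 0.401 CPM (UMIs scaled to the class total) in RSPO3-OE cells and 0.196 CPM in Ctrl cells, where macrophages had 149 and 95.2 CPM. The carcinoma markers went partly against the name: Epcam was at 0 UMIs in both libraries and Krt18 at 0.443 and 0.373 CPM, while 6 fibroblast markers summed to 4177 and 2728 CPM.

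Because Hmga2 is in the rule, the Hmga2 level and share of the tumour class are in part fixed by it, and unequally in the libraries. In RSPO3-OE 68.4% of tumour cells carried Krt8 and would have entered without Hmga2. In Ctrl 82.3% entered by Hmga2 alone. A second class was therefore read beside it, with no UMI of Ptprc, of the Cd3 genes or of the 4 Y-linked genes, the same C1q limit, and neither Krt8 nor Hmga2 in its rule. It held 4629 RSPO3-OE and 5191 Ctrl cells with medians of 23735 and 19190 UMIs, and is called the class without Hmga2 in its rule.

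In tumour cells the genes fell into an abundant and a rare set. This assay counts 1 UMI per captured 3′ end whatever the length of the transcript, so the CPM of different genes can be set side by side, though capture can differ between genes. Hmga2 (chr10:120361275-120476469, minus strand) was the most abundant of the 8, at 338 CPM (334.7 to 341) in RSPO3-OE against 266 (263 to 269) in Ctrl. In the class without Hmga2 in its rule it stood at 327 CPM (324 to 330.1) and 242 CPM (239 to 245). It was the first of the 8 in both classes. UMIs of Hmga2 were found in 87.9% of the RSPO3-OE cells (87.0 to 88.8) and 81.9% of the Ctrl cells of that class (80.8 to 82.9), and after thinning to 5000 UMIs per cell in 63.5% and 57.4%. In T cells, a type not known for Hmga2, 5.05% and 8.65% of cells held a UMI of it.

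Hmga1 (chr17:27556497-27563674, plus strand) came next, at 122 CPM (120.1 to 124) in RSPO3-OE against 153 (150.3 to 155) in Ctrl, in 78.5% and 76.3% of tumour cells, or 40.3% and 44.8% after thinning to 5000 UMIs. Hmga1b (chr11:120762794-120764419, plus strand) carries nearly the same sequence: 89.0% of the 50-base windows of its transcripts also occur in Hmga1 transcripts. It stood at 51.0 and 55.4 CPM. Whether and how reads that match both copies were counted is not stated in the labels, so Hmga1 alone is uncertain. The UMIs counted for the copies together gave 173 CPM in RSPO3-OE against 208 in Ctrl, a log2 ratio of -0.27 (-0.29 to -0.24). Reads counted for neither copy would be missing from this sum. For the UMIs counted, the order and the direction were the same with both copies together. Of the 50-base windows of Hmga1 transcripts 55.0% also occur in Hmga1b, and how many reads are missing is not known. The true level of Hmga1 beside that of Hmga2 is therefore not settled.

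Igf2bp2 (chr16:22059009-22163299, minus strand) was the most abundant of the 3 IGF2BP genes, at 47.9 CPM (46.6 to 49.1) in RSPO3-OE against 42.9 (41.7 to 44.2) in Ctrl. Igf2bp1 (chr11:95957163-96005940, minus strand) stood at 18.1 CPM (17.4 to 18.9) and 15.8 CPM (15.1 to 16.6). Igf2bp3 (chr6:49085223-49214957, minus strand) stood at 1.16 CPM (0.977 to 1.37) and 1.64 CPM (1.41 to 1.90). The line's tumour cells thus held the family in the order Igf2bp2, Igf2bp1, Igf2bp3 in both libraries, with no overlap of intervals.

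Lin28b (chr10:45376620-45486395, minus strand) stood at 0.753 CPM (0.605 to 0.925) in RSPO3-OE against 1.84 (1.60 to 2.12) in Ctrl, with a UMI in 1.94% and 4.19% of tumour cells. Lin28a, its paralog, had 0 UMIs in both libraries, which allows up to 0.0251 CPM in tumour cells of RSPO3-OE and 0.0279 CPM in those of Ctrl. Igf2 (chr7:142650766-142666816, minus strand) had 14 UMIs in RSPO3-OE and 86 in Ctrl, or 0.117 CPM (0.0640 to 0.196) and 0.801 CPM (0.641 to 0.989). H19 (chr7:142575529-142578143, minus strand, annotated as a lincRNA) had 15 and 33 UMIs in 11 cells each, or 0.125 CPM (0.0702 to 0.207) and 0.307 CPM (0.212 to 0.432). Of the 8, Igf2bp2 and Lin28b overlap no other annotated gene. In Ctrl the intervals of Igf2bp3 and Lin28b overlapped, and in RSPO3-OE those of Igf2 and H19 did.

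**Figure D1:**
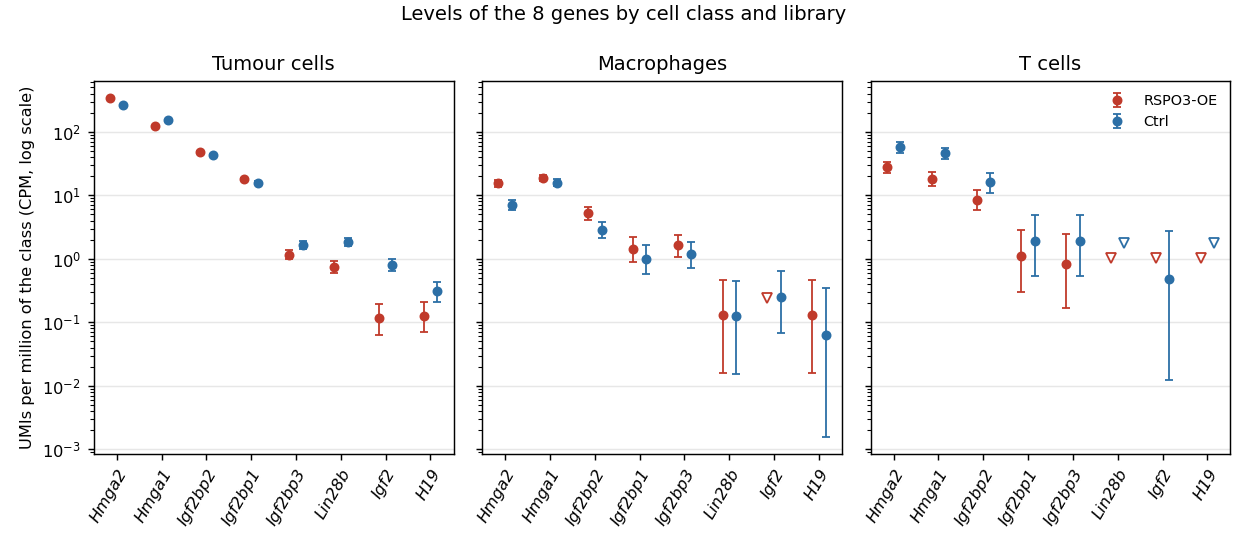
Level of each gene (CPM, log scale) in tumour cells, macrophages and T cells of the RSPO3-OE (red) and Ctrl (blue) libraries; bars are 95% counting intervals and open triangles mark the upper bound where 0 UMIs were seen. In tumour cells 4 genes lie above 15 CPM and the other 4 below 2 CPM, and Igf2bp3 is about as high in macrophages as in tumour cells.

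The genes were not equally restricted to tumour cells. Hmga2 was 21.6-fold higher in tumour cells than in macrophages in RSPO3-OE (19.04 to 24.6) and 38.0-fold in Ctrl (31.5 to 46.1). In the class without Hmga2 in its rule these folds were 20.9 and 34.5. Igf2bp1 was 12.7-fold and 15.8-fold higher, Igf2bp2 9.18-fold and 14.9-fold, Hmga1 6.53-fold and 9.64-fold. Lin28b was 5.77-fold (1.55 to 48.4) and 14.7-fold higher (4.03 to 123), on 2 macrophage UMIs in each library. These 5 of the 8 genes were 1.5-fold or more higher in tumour cells in both libraries, where 32.1% of 14442 genes tested were. The count is a description only, since the rule selects on Hmga2 and Lin28b reached 10 UMIs through tumour cells alone.

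Igf2bp3 stood apart from its paralogs. It was at 1.63 CPM (1.05 to 2.40) in RSPO3-OE macrophages and 1.19 CPM (0.716 to 1.86) in Ctrl macrophages, a tumour-to-macrophage fold of 0.713 (0.464 to 1.14) and 1.38 (0.857 to 2.35). Both intervals include 1. Of its 25 UMIs in RSPO3-OE macrophages 0 lay in cells that clustered with tumour cells, and of its 19 in Ctrl 2 did.

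Macrophages held 26 cells in RSPO3-OE and 10 in Ctrl that lay in clusters made mostly of tumour cells. These few cells held 154 of the 240 Hmga2 UMIs of RSPO3-OE macrophages and 46 of the 112 in Ctrl. Without them Hmga2 stood at 5.87 CPM (4.70 to 7.25) and 4.21 CPM (3.25 to 5.35), with a UMI in 5.56% and 3.43% of macrophages. Hmga1 was then at 16.2 CPM (14.2 to 18.4) and 14.5 CPM (12.7 to 16.5). The ratio of Hmga1 to Hmga2 UMIs was then 2.76 and 3.44 in macrophages, against 0.361 and 0.574 in tumour cells. By the UMIs counted, the macrophages of both libraries thus held the HMGA genes in the opposite order to tumour cells.

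Between the libraries, macrophages showed 2 of 5 genes tested (at least 10 UMIs in the libraries together) 1.5-fold or more higher in RSPO3-OE and 0 lower, where 13.3% of 12845 genes were higher and 7.79% lower. Hmga2 stood at 15.6 CPM against 7.01, a log2 ratio of 1.16 (0.83 to 1.49), and Igf2bp2 at 5.21 against 2.88, a log2 ratio of 0.86 (0.32 to 1.41). Krt8, a tumour gene here, stood at 23.6 against 5.69 CPM in the same cells. Without the macrophages of tumour clusters, left out after the data were seen, the log2 ratio of Hmga2 was 0.48, under 1.5-fold, and the genes past it were Igf2bp1 (1.68, on 9 and 3 UMIs), Igf2bp2 (0.68) and Igf2bp3 (0.66). The part of tumour RNA in these ratios was not tested. Hmga1 stood at 18.7 CPM in RSPO3-OE macrophages and 15.8 CPM in Ctrl, a log2 ratio of 0.24 (-0.01 to 0.49). Over 10 settings this ratio ran from -0.045 to 0.34.

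T cells gave few UMIs. Hmga2 had 101 UMIs in 21 of 416 RSPO3-OE cells and 117 UMIs in 18 of 208 Ctrl cells, and the 5 highest cells held 78 and 73 of them. Hmga1 had 66 and 95 UMIs in 24 and 20 cells. The same classes held 220 and 239 UMIs of Krt8, or 60.8 CPM in RSPO3-OE against 116 in Ctrl, a log2 ratio of -0.93 (-1.20 to -0.66). In T cells 3 of 3 genes tested, Hmga1, Hmga2 and Igf2bp2, were 1.5-fold or more lower in RSPO3-OE and 0 higher, where 16.6% of 11186 genes were lower and 10.1% higher. Their log2 ratios were -1.34 (-1.81 to -0.87), -1.02 (-1.42 to -0.63) and -0.90 (-1.66 to -0.15), and the part of tumour RNA in them was not tested. Without the 7 and 1 T cells that lay in tumour clusters, Krt8 stood at 30.1 CPM in RSPO3-OE against 118 in Ctrl. These values rest on few cells, with a Krt8 UMI in 3.18% and 1.93% of the T cells left. Ctrl tumour cells stood lower, at 95.1 CPM of Krt8. In the T cells left the log2 ratios of the 3 genes were -1.98, -2.03 and -1.33. With doublets kept they were -0.84, -0.037 and -0.46, which left 1 of 4 genes tested past 1.5-fold, and after thinning to 5000 UMIs Hmga2 stood at 0.0935 and 1 of 2 was past it. Of all genes tested, 10.6% were 1.5-fold or more higher and 13.1% lower with doublets kept. After thinning to 5000 UMIs these shares were 13.8% and 14.0%.

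Among tumour cells, 0 of the 8 genes stood 1.5-fold or more higher in RSPO3-OE and 3 stood 1.5-fold or more lower, where 13.6% of 15240 genes tested were higher and 16.8% lower. The median log2 ratio of all genes was -0.09. By the tumour rule the abundant genes thus differed by less than 1.5-fold. The 3 past it, Lin28b, Igf2 and H19, were the rarest in RSPO3-OE. With tumour cells taken by Krt8 alone, 3035 RSPO3-OE and 777 Ctrl cells, Hmga2 was past 1.5-fold too, with a log2 ratio of 0.64. In those cells 1 of the 8 genes stood 1.5-fold or more higher in RSPO3-OE and 3 lower.

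Hmga2 had a log2 ratio of 0.35 (0.32 to 0.37), or 1.27-fold higher in RSPO3-OE. In the class without Hmga2 in its rule the log2 ratio was 0.43 (0.41 to 0.46), or 1.352-fold. The difference was larger in dividing cells, those with at least 2 UMIs of Mki67 and Top2a. There Hmga2 stood at 367 CPM in RSPO3-OE against 252 in Ctrl, a log2 ratio of 0.54 (0.52 to 0.57). In cells with 0 UMIs of both it stood at 238 and 213 CPM, a log2 ratio of 0.16 (0.11 to 0.21), and by the rule with Hmga2 at 265 and 268 CPM, a log2 ratio of -0.02 (-0.07 to 0.03). The difference between dividing and other cells was not tested.

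Hmga1 differed in the other direction, with a log2 ratio of -0.32 (-0.36 to -0.29), lower in RSPO3-OE. The log2 ratio was -0.27 (-0.31 to -0.23) in dividing cells and -0.27 (-0.36 to -0.19) in cells with 0 UMIs of Mki67 and Top2a, both in the class without Hmga2 in its rule. The HMGA genes thus differed in opposite directions: the ratio of Hmga1 to Hmga2 UMIs was 0.361 in RSPO3-OE tumour cells and 0.574 in Ctrl tumour cells.

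Igf2bp1 had a log2 ratio of 0.20 (0.10 to 0.29) and Igf2bp2 one of 0.16 (0.10 to 0.21), both higher in RSPO3-OE. Igf2bp3 had one of -0.50 (-0.83 to -0.17). Igf2bp2 was 1.17-fold higher in dividing cells of the class without Hmga2 in its rule and 1.01-fold in cells with 0 UMIs of Mki67 and Top2a, and the second log2 interval, -0.10 to 0.14, included 0.

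Lin28b was 2.45-fold lower in RSPO3-OE, a log2 ratio of -1.29 (-1.67 to -0.93), on 90 and 198 UMIs. The log2 ratio was -1.28 among dividing cells and -1.07 among cells with 0 UMIs of Mki67 and Top2a of the class without Hmga2 in its rule. Igf2 was 6.84-fold lower, a log2 ratio of -2.77 (-3.71 to -1.95). The antisense gene Igf2os, which overlaps Igf2 on the opposite strand, had 16 UMIs in RSPO3-OE and 58 in Ctrl. Any exchange of reads between the pair was not tested. H19 had a log2 ratio of -1.29 (-2.28 to -0.37), but 1 Ctrl cell held 11 of its 33 UMIs. Its ratio moved with the cells taken, to -2.16 in the class without Hmga2 in its rule, -3.20 as the mean of the cells' own CPM, -0.23 in dividing tumour cells and 0.0503 in tumour cells without Lum and Pdgfra UMIs, and in the last pair it was not past 1.5-fold.

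**Figure D2:**
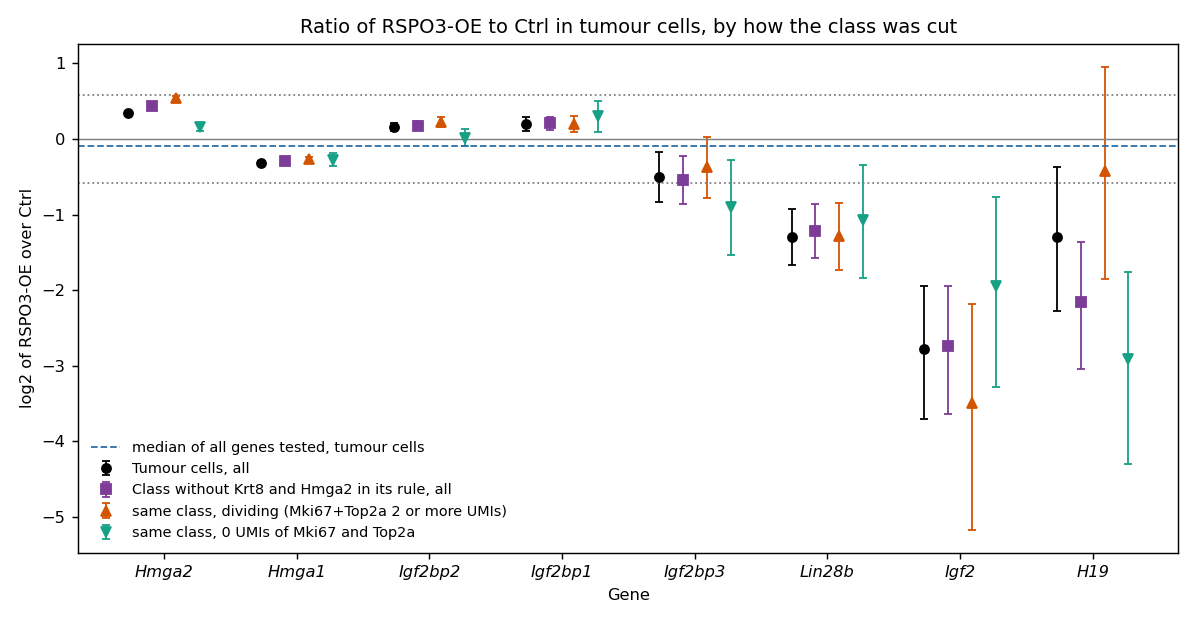
Log2 ratio of RSPO3-OE to Ctrl for each gene in tumour cells, in the class without Krt8 and Hmga2 in its rule, and in its dividing and other cells; bars are 95% counting intervals, dotted lines 1.5-fold and the dashed line the median of all genes. Hmga2 runs from 0.54 in dividing cells to 0.16 in cells without Mki67 and Top2a, Hmga1 stays between -0.32 and -0.27, and Lin28b and Igf2 are below -1 in all 4.

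Per cell, the Hmga2 difference was spread over the distribution. When each cell was thinned to 5000 UMIs, 36.5% of 4548 RSPO3-OE cells and 42.6% of 4965 Ctrl cells of the class without Hmga2 in its rule had no Hmga2 UMI, leaving out 81 and 226 shallower cells. The shares with exactly 1 were 25.5% and 26.5%, and with exactly 5 they were 3.25% and 1.83%. Unthinned, and in tumour cells by the rule with Hmga2, the median cell held 6 UMIs of Hmga2 in RSPO3-OE and 4 in Ctrl. These medians carry the rule and the difference in median depth, 24685 against 21369 UMIs.

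**Figure D3:**
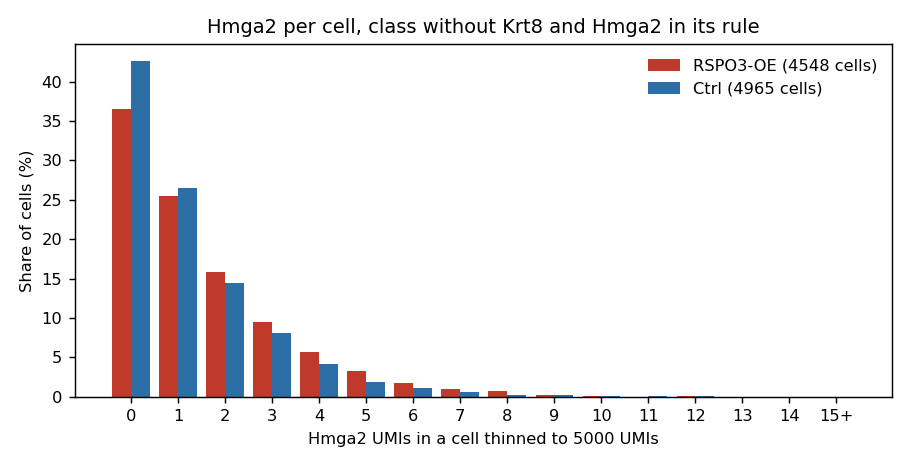
Share of cells (%) by number of Hmga2 UMIs after thinning each cell to 5000 UMIs, in 4548 RSPO3-OE (red) and 4965 Ctrl (blue) cells of the class without Krt8 and Hmga2 in its rule. Ctrl has the larger share at 0 UMIs, 42.6% against 36.5%, and RSPO3-OE the larger shares from 2 to 8 UMIs, with few cells of either library above that.

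The libraries differ in which tumour states they hold, so the genes were also read within clusters, built with the 8 genes left out. With at least 50 tumour cells each, 16 groups of cluster and library were set side by side, and 6 clusters had such cells of both libraries. Most RSPO3-OE tumour cells lay outside these 6. Clusters 1, 2 and 6, left out, held 1334, 1215 and 770 of them against 33, 48 and 16 of Ctrl. Cluster 10, also left out, held 13 against 604. Within the 6 clusters the values were as follows. Hmga1 was lower in RSPO3-OE in 6 of 6, with intervals leaving out 0 in 4. Hmga2 was higher in 5 of 6, with intervals leaving out 0 in 4. The largest of these was in cluster 8, led by the mitotic genes Cdc20, Aurka and Cenpe, at 304 CPM in RSPO3-OE against 199 in Ctrl. The exception was cluster 9, led by the matrix genes Ogn, Lum and Col1a1, with 129.5 CPM in RSPO3-OE against 206 in Ctrl. Igf2bp1 was higher in RSPO3-OE in 5 of 6 (4 leaving out 0), and Igf2bp2 in 5 of 6 (3 leaving out 0). Lin28b was lower in 5 of 6, with 1 interval leaving out 0.

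These cluster values are of tumour cells chosen in part by Hmga2, and in cluster 9 the rule took 109 of 154 RSPO3-OE cells but 392 of 671 Ctrl cells. In the class without Hmga2 in its rule, 7 clusters had at least 50 cells of both libraries. Cluster 2 was among these 7, and clusters 1, 6 and 10 were again left out. Hmga2 was then higher in RSPO3-OE in 6 of 7, with 6 intervals leaving out 0. In cluster 9 it was again lower, at 104 CPM against 137, a log2 ratio of -0.40 (-0.60 to -0.22). Hmga1 was lower in 5 of 7, all 5 intervals leaving out 0, and in clusters 9 and 11 its log2 ratios were 0.0035 (-0.37 to 0.37) and 0.02 (-0.15 to 0.20). Igf2bp1 was higher in 6 of 7 (4 leaving out 0) and Igf2bp2 in 7 of 7 (3 leaving out 0).

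The 4 abundant genes varied to different degrees over the 16 groups. Hmga1 ran from 31.9 CPM in cluster 6 of RSPO3-OE, led by Omd, Mgp and Aspn, to 188 CPM in cluster 8 of Ctrl, a 5.90-fold range. Hmga2 ran from 129.5 CPM in cluster 9 to 404 CPM in cluster 2 of RSPO3-OE, led by M1ap, Rpl39l and Ccnb1, a 3.12-fold range, and its levels here carry the rule. Igf2bp1 ran from 9.96 CPM in cluster 4 of Ctrl, led by the hypoxia genes Ero1l, P4ha2 and Ankrd37, to 28.5 CPM in cluster 9 of RSPO3-OE, a 2.86-fold range. Igf2bp2 had the narrowest range, 1.44-fold, from 39.6 CPM in cluster 6 to 57.2 CPM in cluster 4, both of RSPO3-OE.

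**Figure D4:**
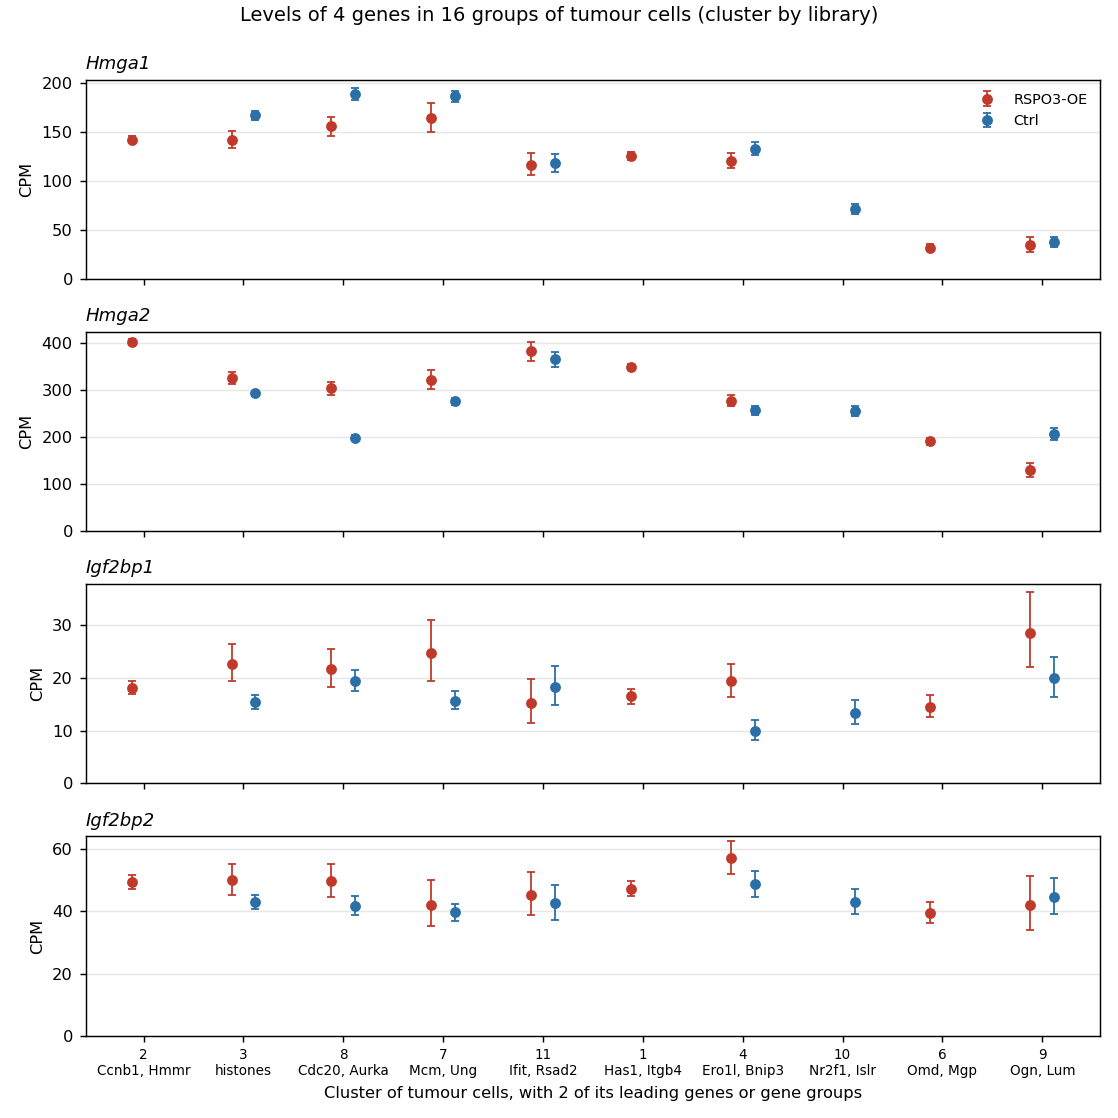
Level (CPM, axes from 0) of Hmga1, Hmga2, Igf2bp1 and Igf2bp2 in tumour cells of each cluster in RSPO3-OE (red) and Ctrl (blue), for groups of at least 50 cells; bars are 95% counting intervals. Hmga1 is lowest in clusters 6 and 9, at 31.9 to 37.2 CPM, while Igf2bp2 stays between 39.6 and 57.2 CPM.

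Sorting the class without Hmga2 in its rule by state genes showed the same contrast. In dividing cells Hmga1 stood 0.85 higher in log2 than in cells with 0 UMIs of Mki67 and Top2a, in both libraries, with 138 against 76.6 CPM in RSPO3-OE and 167 against 92.6 CPM in Ctrl. Hmga2 stood 0.63 higher in RSPO3-OE (0.59 to 0.66) and 0.24 higher in Ctrl (0.20 to 0.28). Igf2bp1 stood 0.22 and 0.32 higher, and Igf2bp2 had differences of 0.07 (-0.02 to 0.16) and -0.14 (-0.24 to -0.04). Dividing cells were deeper, with medians of 31049 and 27039 UMIs against 17083.5 and 13130, and the part of depth in these values was not tested.

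In cells with at least 2 UMIs of Lum and Pdgfra, genes of matrix-producing mesenchymal cells, Hmga1 stood at 63.6 CPM in RSPO3-OE against 97.3 in Ctrl, against 135 and 164 CPM in cells with none. These are log2 differences of -1.09 and -0.75, on 1168 and 2334 UMIs in the Lum and Pdgfra cells. Hmga2 differed by -0.64 and -0.30. Igf2bp2 differed by -0.11 and -0.05. Cells with at least 5 UMIs of Mgp, a matrix calcification inhibitor, had log2 differences of -1.01 and -1.12 for Hmga1 and -0.35 and -0.57 for Hmga2. Lin28b stood higher in Lum and Pdgfra cells in both libraries. The log2 ratio was 0.82 in RSPO3-OE, with an interval of 0.07 to 1.53, and that of Ctrl was 0.92 (0.46 to 1.38). Igf2 stood 0.95 higher in RSPO3-OE, on 4 and 9 UMIs with an interval that included 0, and 0.98 higher (0.26 to 1.69) in Ctrl. H19 in Ctrl was at 2.50 CPM against 0.105 CPM, on 60 and 7 UMIs, and had 1 and 8 UMIs in RSPO3-OE. Igf2bp3 differed by -0.56 (-1.42 to 0.21) and 0.22 (-0.32 to 0.73).

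In cells with at least 5 UMIs of the interferon-induced genes Ifit1, Ifit3 and Rsad2, Hmga1 differed by -0.40 in RSPO3-OE and -0.32 in Ctrl. Hmga2 differed by -0.10 and 0.14 there, and Igf2bp3 by 0.14 (-0.49 to 0.79) and 1.06 (0.54 to 1.58). In cells with at least 5 UMIs of Krt8 Hmga1 stood 0.42 and 0.27 higher than in cells with none, and Hmga2 0.09 higher in RSPO3-OE but -0.39 (-0.46 to -0.33) in Ctrl. Within RSPO3-OE, 355 cells with at least 10 UMIs of Rspo3 had the 4 abundant genes 0.12 to 0.23 higher in log2 than 3665 cells with 0 UMIs of it. Their median depths were 28051 and 22886 UMIs. Krt8 cells were deeper too, at 29160 against 19547.5 in RSPO3-OE and 27993 against 18036 in Ctrl. Lum and Pdgfra cells and Mgp cells were shallower than cells with none. The part of depth in these differences was not tested.

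**Figure D5:**
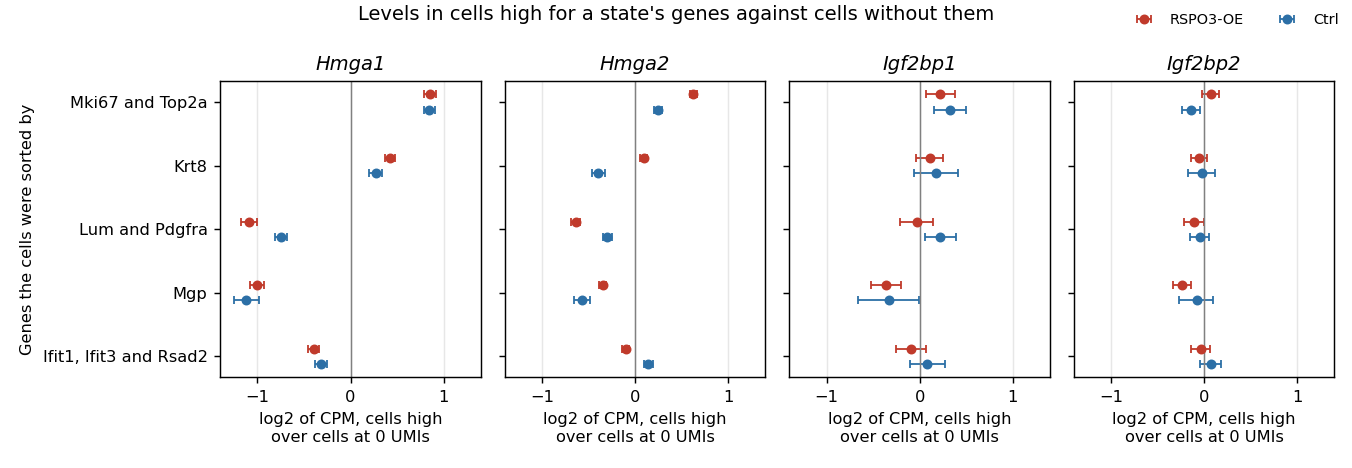
Log2 of the CPM in cells high for the named state genes over the CPM in cells with 0 UMIs of them, for 4 genes in RSPO3-OE (red) and Ctrl (blue), in the class without Krt8 and Hmga2 in its rule; bars are 95% counting intervals. Hmga1 runs from 0.85 in dividing cells to -1.12 in Mgp cells, while over the 5 states plotted Igf2bp2 stays between -0.24 and 0.07.

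H19 was concentrated in few cells. Of the 78 H19 UMIs in kept Ctrl cells 69 lay in 19 cells without a Y-linked UMI, and 44 of these in 9 cells of cluster 9. In RSPO3-OE 36 of 53 UMIs lay in 4 cells that carried a Y-linked UMI, 35 of them in 3 cells of cluster 19, 9 RSPO3-OE and 7 Ctrl cells led by Sfrp2, Fbln2 and Cpxm1, and 1 cell held 19. Igf2 had no UMI in RSPO3-OE cells with a Y-linked UMI and 9 UMIs in 6 such cells of Ctrl. Among RSPO3-OE cells without a Y-linked UMI, H19 had 17 UMIs in 13 cells and Igf2 15 UMIs in 13 cells. The larger part of the H19 UMIs in RSPO3-OE thus rested on the 3 cells of cluster 19.

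Cells with and without a UMI of one gene were compared for the others after thinning to 5000 UMIs. Hmga2 was seen in 71.9% of RSPO3-OE cells with Hmga1 (69.7 to 74.0) and 58.2% of those without (56.3 to 60.04). In Ctrl the shares were 63.9% and 52.6%. Igf2bp1 was seen in 7.64% and 7.84% of RSPO3-OE cells with and without Hmga1, and in 6.16% and 7.17% in Ctrl, with overlapping intervals. Igf2bp2 was seen in 21.3% and 18.3% of RSPO3-OE cells with and without Hmga2, and in 20.05% and 17.2% in Ctrl, with overlapping intervals.

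Over the 16 groups, the 3 genes most like each abundant gene were taken by Pearson's r of log2(CPM + 1) among 5436 genes of at least 20 CPM (5437 for Igf2bp1). The groups share libraries and depth, so r is a description without a p-value. For Hmga1 they were its copy Hmga1b (r = 0.975), Steap1 (0.956) and Pdgfa (0.949). For Hmga2 they were Fyb (0.874), Stn1 (0.862) and Zdhhc21 (0.854). For Igf2bp1 they were Dicer1 (0.838), Ubfd1 (0.837) and Ubap2l (0.821), and for Igf2bp2 Pfkp (0.751), Csnk1d (0.750) and Glrx (0.734). Hmga1 and Hmga2 had r = 0.665 with each other, and Igf2bp1 and Igf2bp2 r = 0.0451. The Hmga2 levels behind its values carry the rule. Over 17 groups of the class without Hmga2 in its rule, the 3 genes most like Hmga2 were Slc35e4 (0.907), Fyb (0.900) and Nppb (0.899), and its r with Hmga1 was 0.772.

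The wider pathways were read from 6 lists, in tumour cells, RSPO3-OE over Ctrl, where 13.6% of all genes tested were 1.5-fold or more higher and 16.8% lower. Of 28 genes tested in the let-7 list, which holds let-7 processing factors, let-7 targets and 5 of the 8 genes, 1 stood 1.5-fold or more higher and 2 lower, with a median log2 ratio of 0.03 against -0.09 over all genes. Ccnd2, a D-type cyclin, was at 8.67 against 2.39 CPM (1.86), Myc at 75.5 against 50.6 CPM (0.58), and Mycn at 8.98 against 15.7 CPM (-0.80). Dicer1, the enzyme that cuts precursor microRNAs, was at 25.03 and 25.2 CPM. Of 14 in the IGF list, 3 were higher and 3 lower with a median of 0.16, beside the same 13.6% and 16.8%. This list holds Igf2 and the 3 Igf2bp genes, and Igf2 is among the 3 lower. The binding proteins Igfbp7 and Igfbp3 had log2 ratios of 5.77 and 4.99 on 426 against 7 and 390 against 11 UMIs. Both are among the leading genes of cluster 20 (7 and 5 cells, of which 1 counted as a tumour cell), which also include the endothelial genes Emcn and Cldn5, and all 4 endothelial markers were higher in the same tumour cells, summing to 15.9 against 2.52 CPM, with Cdh5 at 979 against 61 UMIs. Their part in these ratios was not tested. Irs1, the adaptor below IGF1R, was at -0.70, Igf2r, the receptor that clears IGF2, at -0.61, and Igf1r at 77.7 and 69.7 CPM, a log2 ratio of 0.16.

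Of 14 imprinted genes tested, 5 were higher and 4 lower with a median of 0.09, against 13.6% and 16.8% of all genes. The list holds Igf2 and H19, and both are among the 4 lower. Of the 5 higher, Meg3 had 51 against 4 UMIs, Mest 23 against 3 and Peg3 10 against 0. Meg3 is among the leading genes of cluster 19. The growth regulator Plagl1 was at 118 against 4 UMIs (4.73), the amino acid transporter Slc38a4 at 254 against 145 UMIs (0.65), and Phlda2, which restrains placental growth, at 320 against 1220 UMIs (-2.09). Of 11 other HMG genes 0 passed 1.5-fold, with a median of -0.16, from Hmgb1 at -0.56 and Hmgb3 at -0.31 to Hmgn3 at 0.07 and Hmgn2 at 0.14. Of 21 genes for m6A methylation, its readers and IGF2BP partners 0 passed, with a median of -0.05. These ran from the methyltransferase subunits Wtap (-0.53) and Mettl3 (-0.32) to the reader Ythdf2 (0.30) and the poly(A)-binding protein Pabpc1 (0.31). Of 13 other oncofetal and fetal gut genes 5 were higher and 3 lower with a median of 0.36, beside the same shares of all genes. Clu, a marker of regenerating gut stem cells, was at 435 against 137 CPM (1.67) and Il1rn, an interleukin 1 antagonist, at 107 against 22 UMIs (2.13). The transcription factor Sox4 was at 55.1 against 125.6 CPM (-1.19) and the glypican Gpc3 at 63 against 144 UMIs (-1.349).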

How the data were processed

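From tumour tissue 2 droplet 3′ single-cell libraries were used, 1 per group. The authors deposited UMI counts per gene and barcode, not normalized. The submitters' processing notes name Cell Ranger 3.0.1 and mm10; the matrix header gives software 3.1.0. Filters of at least 200 genes and at most 20% mitochondrial UMIs removed 150 RSPO3-OE and 311 Ctrl barcodes, and 171 and 95 more were removed that Scrublet (scanpy 1.11.5, expected rate 0.05) marked as doublets. Cells were clustered together by Leiden at resolution 1.0 (2000 variable genes without the 8, 30 components, 15 neighbours), with no batch integration. UMIs were summed per class and library and divided by the class total (CPM). Intervals are exact Poisson (levels), Clopper-Pearson (shares) and binomial (log2 ratios), at 95%. Genes with at least 10 UMIs were compared, and 1.5-fold was the limit for a count of genes. A sum of 0 was replaced by 3 counts, which also sets the upper limit printed for 0 UMIs. No test was made. Alternatives were scaling, the mean of the cells' own CPM, thinning, the filters and the rule of the class. The log2 ratio and its counting interval were tested on simulated Poisson counts, and the other steps were not. Clusters and likeness were also read in the class without Krt8 and Hmga2 in its rule, a choice made after seeing the data. Named beside the 8 genes are, per list, the 2 highest and 2 lowest with at least 100 UMIs, and the 3 most alike. Dicer1, Igf1r, Igf2r, Krt8, Igf2os, Meg3, Mest and Peg3 were added after their values were seen. The genes and lists were chosen with earlier results of these data known. Coordinates and 3′ UTRs are from GENCODE vM21.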

Additional observations from a re-analysis of the deposited data

Results flagged for a closer look

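In T cells Hmga2 stood lower in RSPO3-OE, at a log2 ratio of -1.02, while in tumour cells it stood higher, at 0.35. Igf2bp2 did likewise, at -0.90 in T cells and 0.16 in tumour cells. The difference between the classes was not tested. Both T cell values rest on few cells, 21 and 18 with a UMI of Hmga2 and 17 and 20 with one of Igf2bp2, and after thinning to 5000 UMIs Hmga2 stood at 0.0935 in T cells.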

How the results depend on the processing

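The count of genes past 1.5-fold moved by more than 1.5 times in macrophages (2) to 1 with cells thinned to 2000 UMIs, and in T cells (3) to 1 with cells thinned to 5000 or to 2000 UMIs or with doublets kept, and to 6 with no filter on low counts. The causes were not tested. In tumour cells it ran from 2 to 4 over all settings, and 38 of 43 settings of the 4 counts stayed within 1.5 times. Signs turned for Hmga2 (-0.018) and Igf2bp2 (-0.047) in tumour cells without Mki67 and Top2a UMIs, and for Igf2bp1 with cells thinned to 2000 UMIs (-0.32). They also turned for H19 without Lum and Pdgfra cells (0.0503) and for Hmga2 in T cells thinned to 5000 UMIs (0.0935). The sign of Hmga1 in macrophages turned too, to -0.045 at its lowest over 10 settings. Over 18 settings in tumour cells the log2 ratio of Hmga2 ran from -0.018 to 0.64, Hmga1 from -0.37 to -0.15, Lin28b from -2.43 to -1.07, Igf2 from -3.62 to -1.52 and H19 from -3.83 to 0.0503. Thinning to 5000 UMIs gave 10.2% of tumour genes higher and 19.2% lower. Settings that cut the class without Hmga2 in its rule by division, averaged the cells' own CPM in it or thinned it, and those that left out cells of tumour clusters, were chosen after seeing the data. No paired analysis was possible because each group has 1 library. Depth limits Igf2bp3, Lin28b, Igf2 and H19.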

Other observations

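Cells in no class, 933 in RSPO3-OE and 1123 in Ctrl, included 315 and 853 that met the class without Hmga2 in its rule. In all cells in no class Hmga1 stood at 59.98 and 83.0 CPM and Igf2bp2 at 28.9 and 31.1 CPM, between tumour cells and macrophages. Hmga2 stood at 124 against 53.6 CPM there, where the tumour rule had already taken every cell with a Hmga2 UMI that met its other limits.

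Cluster 13, led by the metalloproteinase genes Mmp12 and Mmp13, held Igf2bp2 at 12.3 CPM (6.57 to 21.1, on 13 UMIs) in 129 RSPO3-OE cells and 9.69 CPM (4.84 to 17.3, on 11 UMIs) in 118 Ctrl cells, with Krt8 at 6.64 and 1.76 CPM. Cluster 0, led by Hbb-bs, Fcrls and Ms4a7, and cluster 5, led by Chil3, Ly6i and Ly6c2, held it at 0.799 to 2.40 CPM. Cluster 13 was singled out after its values were seen.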
